A study of Mus musculus with 12 samples.

Results

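Transcripts of 9 genes that form and control the hypoxia-inducible factor (HIF), the transcription factor through which cells answer to oxygen, were followed in mouse splenocytes cultured with tumour cells. The genes were the HIF subunits Hif1a, Epas1 and Arnt, the hydroxylases Egln1, Egln2, Egln3 and Hif1an, the ubiquitin ligase gene Vhl and the HIF inhibitor Cited2. They are 9 of 18193 genes named on the array, and all 23 probe sets that the platform annotation gives to these symbols alone were taken. Of these, 19 passed a filter on dim probe sets, which asked for a signal above the median of the probe set's own array on at least 3 arrays. The 4 below it were 1 probe set of Hif1a, with signals of 5.09 to 40.3, 2 of Arnt, with signals of 3.91 to 55.9, and 1 of Hif1an, with signals of 2.33 to 18.2.

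The splenocytes came from DBA/2 mice aged 10 weeks and were cultured for 9 days with KLN-205, a squamous lung carcinoma line from mouse. In all 4 groups these tumour cells had SEMA3A, a semaphorin that is secreted, knocked down, and interleukin-2 was given at 100 units/mL every 3 days. The control group received nothing further. The SEMA6A group had tumour cells that overexpressed SEMA6A, a membrane-bound semaphorin, the SEMA3A group received purified SEMA3A protein at 10 µg/mL, and the last group had both. Each group had 3 arrays, 12 in all. Whether the 3 came from different cultures or mice is not given in the labels, and p-values therefore cover only the spread among these samples, which may be technical. No group lacked tumour cells or had tumour cells with their own SEMA3A, so the control is itself a treated culture.

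HIF is a pair of an oxygen-regulated alpha subunit, from Hif1a or Epas1, and the stable partner ARNT. When oxygen is present, the prolyl hydroxylases of the EGLN family modify the alpha subunit, the VHL ligase binds the modified form, and the protein is degraded. A further hydroxylase, encoded by Hif1an, modifies an asparagine and blocks the binding of the coactivators EP300 and CREBBP, for which CITED2 also competes. The activity of HIF is therefore set largely on the protein, while Egln1 and Egln3 are themselves induced by HIF and so form a feedback loop. Egln2 is not known for such induction. In activated T cells HIF is known to drive glucose uptake and glycolysis.

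The 250 bases before the annotated start are shown for both HIF-induced hydroxylases and, for comparison, for the main alpha subunit. They are from RefSeq on GRCm38.p6, the C57BL/6J reference and not the DBA/2 strain, and are written 5′ to 3′ along the gene. Egln3 is at chr12:54203875-54204124 on the minus strand, Egln1 at chr8:124949255-124949504 on the minus strand and Hif1a at chr12:73907617-73907866 on the plus strand. Capitals mark ACGTG, the core of the element that HIF is known to bind, searched on both strands.
Egln3: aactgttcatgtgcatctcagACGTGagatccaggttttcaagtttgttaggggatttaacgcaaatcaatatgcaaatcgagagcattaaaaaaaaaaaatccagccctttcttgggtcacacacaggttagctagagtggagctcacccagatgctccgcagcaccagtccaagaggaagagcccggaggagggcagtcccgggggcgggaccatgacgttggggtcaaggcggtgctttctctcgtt
Egln1: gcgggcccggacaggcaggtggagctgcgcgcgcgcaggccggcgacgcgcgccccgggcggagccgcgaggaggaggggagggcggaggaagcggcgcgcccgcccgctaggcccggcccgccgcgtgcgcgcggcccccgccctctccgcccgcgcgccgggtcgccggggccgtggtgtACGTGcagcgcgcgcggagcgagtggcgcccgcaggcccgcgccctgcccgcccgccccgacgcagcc
Hif1a: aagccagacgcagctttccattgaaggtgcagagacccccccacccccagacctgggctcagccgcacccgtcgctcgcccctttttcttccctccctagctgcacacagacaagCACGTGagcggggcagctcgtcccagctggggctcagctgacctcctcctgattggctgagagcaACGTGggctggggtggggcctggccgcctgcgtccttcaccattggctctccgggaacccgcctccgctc
Egln3 held the core once, 229 bases before the start, and Egln1 once, 68 bases before it, there as TACGTG. Hif1a held it 3 times, and 2 of these overlap as CACGTG, which reads the same on both strands and is also the core of the E-box bound by MYC. Of the 9 members, 8 had windows in the table, 9 windows in all since Egln2 had 2, and 5 genes held the core at least once. Over all 32851 windows of this length 16.6% held ACGTG, 2.72% TACGTG and 6.02% CACGTG. A match of letters is not a bound site, and binding was not measured in these samples.

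The deposited signals are on a linear scale, made with MAS5, Affymetrix's summary of the probes of a set. Signal levels were therefore not compared between probe sets. Of 8 T cell markers 7 passed the filter, among them Cd3d with a mean of 20020 over the 12 arrays. Cd4, with a mean of 8.59, was below it. All 4 NK cell markers passed, with means of 9357 for Klrd1 and 99.8 for Ncr1. Of 5 B cell markers 2 passed, and the B cell genes Ms4a1, Cd79a and Pax5, which mark much of the spleen, were below the filter. None of the probe sets for Sema3a and Sema6a passed, 3 for each, and their highest signals were 51.3 and 44.6. The RNA was that of splenocytes, so this does not check the knockdown or the overexpression in the tumour cells. In bulk RNA, fewer cells of a type and less RNA per cell cannot be told apart.

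Among the tested probe sets, those of Egln3 had the largest log2 differences from control with either factor alone, and both gave the same order of groups. Egln3 encodes the HIF prolyl hydroxylase best known for strong induction by low oxygen. The brighter probe set, 1418649_at, had signals of 1037, 1514 and 1535 in the control group. With SEMA6A its signals were 2040, 4081 and 2293, with SEMA3A 3507, 2363 and 2038, and with both 1602, 1327 and 2000. Every array with 1 of the factors alone lay above every array with neither or both, though the gap between 2000 and 2038 is narrow. The second probe set, 1418648_at, had signals of 312.3, 332.3 and 321.1 in the control group, 480.8, 1209 and 515.2 with SEMA6A, 682.5, 561.2 and 496.7 with SEMA3A, and 265, 340.3 and 469.4 with both. Again the arrays with a single factor, at 480.8 to 1209, did not overlap the others, at 265 to 469.4. SEMA6A replicate 2 was the highest array for both probe sets. On that array Cd8a, of cytotoxic T cells, was at 495.8 against 1968 to 4231 on the other 11. Klrk1, a receptor of NK and CD8 T cells, was at 489.2 against 2037 to 3809. The next lowest array for both genes, at 1968 and 2037, was SEMA3A replicate 1, the next highest for both Egln3 probe sets. The summed signals of 8 T cell markers, 39066, and of 4 NK cell markers, 14984, were the lowest of the 12 on SEMA6A replicate 2. On SEMA3A replicate 1 these sums were 50191 and 16656. The lists did not fall as wholes: Cd3e and Cd28 of the T cell list were at their highest on SEMA6A replicate 2, 6446 and 3738. Eomes of the NK cell list was also at its highest there, 7489. These 2 arrays also had the highest sums of macrophage and of mast cell markers, given with Epas1 below. The part of the cell mix in the Egln3 signal was not tested.

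The order of the group means of 1418649_at was SEMA6A, 2805 ± 1113, SEMA3A, 2636 ± 771.9, both, 1643 ± 338.2, and control, 1362 ± 281.5 (SD, n = 3 each). The ranges of SEMA6A and SEMA3A overlapped, as did those of both and control. On the log2(signal + 16) scale, where 1 unit is a doubling, SEMA6A minus control was 1.00 ± 0.27 (SE; 95% interval 0.42 to 1.57) for 1418649_at and 1.03 ± 0.29 (0.41 to 1.64) for 1418648_at. SEMA3A minus control was 0.94 ± 0.27 (0.37 to 1.52) and 0.82 ± 0.29 (0.20 to 1.43). Neither passed the threshold of 0.05 after Benjamini-Hochberg adjustment over all 24366 probe sets, with limma adjusted p = 0.525 for SEMA6A and 0.593 for SEMA3A. With both factors, the difference from control was 0.29 ± 0.27 (-0.28 to 0.87) and 0.14 ± 0.29 (-0.48 to 0.75), with intervals that hold 0. Without SEMA6A replicate 2, SEMA6A minus control was 0.69 and 0.62, so that array alone moved the second value by more than 1.5 times. Without SEMA3A replicate 1, SEMA3A minus control was 0.71 and 0.70.

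Egln1 also had its highest group means with a single factor, with smaller differences than Egln3. It encodes the prolyl hydroxylase held to be the main limit on HIF-alpha at normal oxygen. The probe set 1423785_at had signals of 1732, 1881 and 1644 in the control group, 1968, 3241 and 3065 with SEMA6A, 2583, 2344 and 1962 with SEMA3A, and 1914, 1938 and 1926 with both. Arrays with a single factor, at 1962 to 3241, lay above all others, at 1644 to 1938, again by a narrow gap. The second, 1451110_at, had 886.4, 920.5 and 969.4 in the control group, 1015, 1777 and 1691 with SEMA6A, 1798, 1775 and 965 with SEMA3A, and 901.2, 861.7 and 935.5 with both. There 1 array overlapped: SEMA3A replicate 3, at 965, was below control replicate 3, at 969.4. The order of the group means was SEMA6A, SEMA3A, both, control on 1423785_at and SEMA3A, SEMA6A, control, both on 1451110_at. The 3 arrays with both factors were close together, with an SD of 12.3 around a mean of 1926 for 1423785_at.

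For Egln1, SEMA6A minus control was 0.63 ± 0.16 (SE; 95% interval 0.28 to 0.98) on 1423785_at and 0.65 ± 0.23 (0.15 to 1.15) on 1451110_at. SEMA3A minus control was 0.40 ± 0.16 (0.05 to 0.75) and 0.66 ± 0.23 (0.16 to 1.16). None passed, at the same limma adjusted p of 0.525 and 0.593 as Egln3. Both minus control was 0.16 ± 0.16 and -0.02 ± 0.23. Without SEMA6A replicate 1, the lowest Egln1 array of its group, SEMA6A minus control on 1423785_at was 0.86 and passed (limma adjusted p = 0.0492). Without SEMA6A replicate 2 it was 0.50 and did not.

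**Figure D1:**
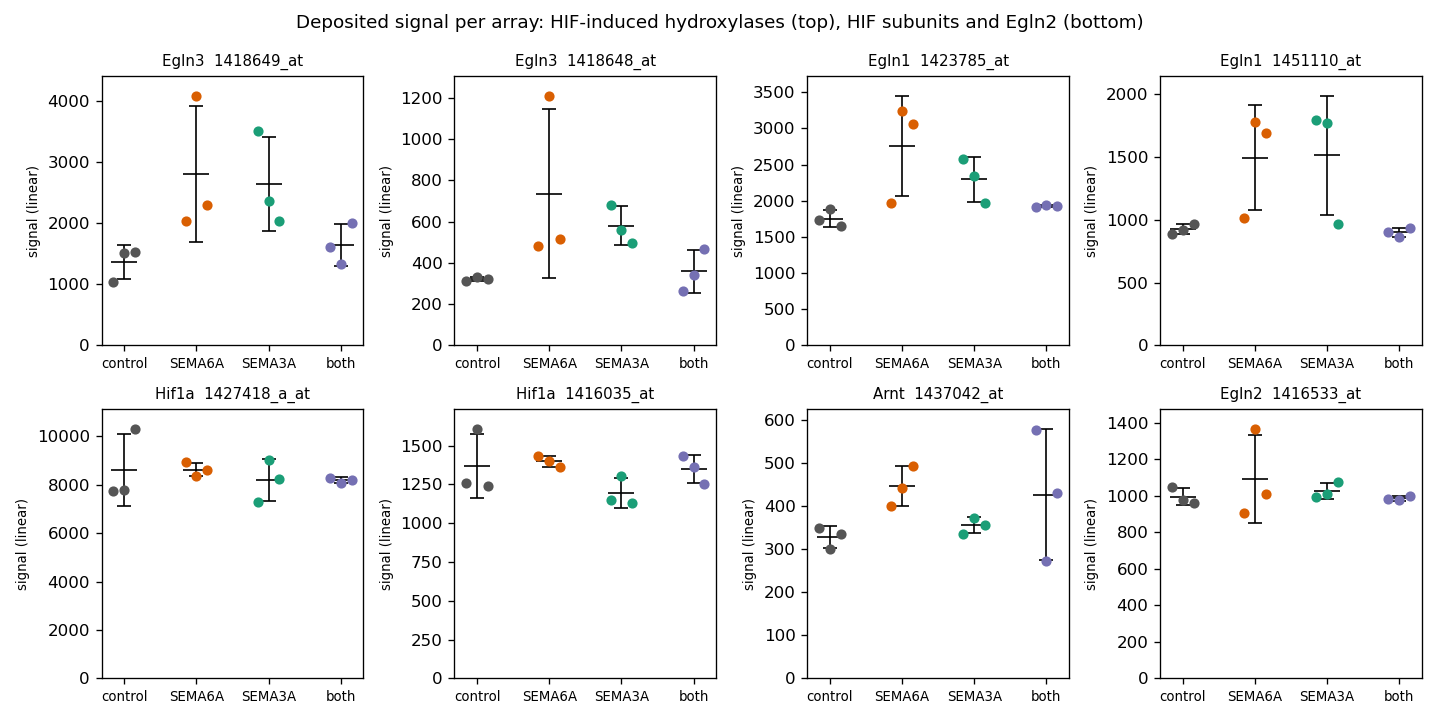
Deposited linear signal of each array for 8 probe sets in the 4 groups, with points for replicates 1 to 3 from left to right and a bar and whiskers for the mean and SD (n = 3). The upper row holds Egln3 and Egln1, where single-factor arrays reach 4081 and 3241, and the lower row Hif1a, Arnt and Egln2, where arrays with 1 factor alone overlap those with neither or both.

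The main alpha subunit showed no comparable pattern. Hif1a on its brightest probe set, 1427418_a_at, had signals of 7727, 7785 and 10310 in the control group, 8926, 8359 and 8614 with SEMA6A, 7303, 9030 and 8229 with SEMA3A, and 8290, 8065 and 8219 with both. Every other group overlapped control, and the highest of the 12 arrays was a control. SEMA6A minus control was 0.01 ± 0.10 (SE; 95% interval -0.21 to 0.23) and SEMA3A minus control -0.07 ± 0.10 (-0.29 to 0.15), so that differences of the size seen for Egln3 lie outside both intervals. The second probe set, 1416035_at, ranged from 1131 to 1608, with differences of 0.05 ± 0.12 and -0.18 ± 0.12. A further dim one, 1448183_a_at, had signals of 31.9 to 76.9 and was above the array median on 5 arrays. It differed from control by -0.54 ± 0.24 with SEMA6A and -0.59 ± 0.24 with SEMA3A, and neither passed (limma adjusted p = 0.526 and 0.593). The probe sets of Hif1a did not vary together, and their pairwise Pearson r over the 12 arrays was 0.0399 to 0.285, against 0.922 for the pair of Egln3 and 0.891 for that of Egln1.

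Epas1, the alpha subunit known from endothelium and macrophages, was led by single arrays. Its probe set 1435436_at had signals of 1792, 1355 and 2471 in the control group, 1180, 4361 and 1608 with SEMA6A, 3827, 1958 and 1823 with SEMA3A, and 1560, 1884 and 1523 with both. The groups overlapped, and SEMA6A replicate 2 and SEMA3A replicate 1 stood above the rest. The probe set 1449888_at had its highest signals on the same 2 arrays, 712.6 and 436.1, and r was 0.951 between the pair. SEMA6A minus control was 0.17 ± 0.40 and 0.42 ± 0.40 (SE), and without SEMA6A replicate 2 both turned, to -0.38 and -0.14. Those 2 arrays also had the highest summed signals of 8 macrophage markers, 897 and 906 against 583 to 750 on the other arrays, and of 5 mast cell and basophil markers, 4212 and 5512 against 2580 to 3547. Of the macrophage markers 4 of 8 passed the filter, with Adgre1, Lyz2, Itgam and Mrc1 below it, and of the mast cell markers 3 of 5, with Fcer1a and Ms4a2 below it. Within the macrophage list, Cd14 and Cd68 were highest on those 2 arrays. Csf1r was highest on replicate 1 of the group with both factors, at 136.3 against 115.5 and 106.2 on those 2. The summed endothelial markers split them: SEMA6A replicate 2 was the lowest array, at 264, and SEMA3A replicate 1 the highest, at 538. Pecam1 of that list was at 179.7 and 456.5 there. The part of macrophages, mast cells or endothelial cells in the Epas1 signal was not tested.

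Arnt, the shared partner subunit, had 3 probe sets above the filter that did not vary together, with r between -0.117 and 0.312. The brightest, 1437042_at, had signals of 349, 300.2 and 333.8 in the control group, 400.1, 442.4 and 492.7 with SEMA6A, 335.7, 372.8 and 356 with SEMA3A, and 576.8, 272 and 429.1 with both. SEMA6A arrays lay above the control arrays, by 0.42 ± 0.20 (SE), which did not pass (limma adjusted p = 0.536). The group with both factors held the highest and the lowest array of all 12. On 1421721_a_at both minus control was 0.34 ± 0.15, at an unadjusted p of 0.0424 (limma adjusted p = 0.813).

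Of the hydroxylases outside the feedback loop, Egln2 encodes a further HIF prolyl hydroxylase. Its signals on 1416533_at were 1048, 974.4 and 961.8 in the control group, 905.8, 1366 and 1008 with SEMA6A, 991.7, 1008 and 1074 with SEMA3A, and 983.3, 975.1 and 998.9 with both. The groups overlapped, and SEMA6A minus control was 0.12 ± 0.13 (SE; 95% interval -0.16 to 0.40). Hif1an, the asparaginyl hydroxylase, lay nearer to Egln1: on 1428576_at it had 427, 418.8 and 450.8 in the control group, 432.4, 722.7 and 601.5 with SEMA6A, 601.3, 457.7 and 505.5 with SEMA3A, and 425.6, 436.2 and 523.9 with both. Its SEMA6A difference was 0.40 ± 0.17 and did not pass (limma adjusted p = 0.525), and it was 0.25 without SEMA6A replicate 2. The dim probe set 1452845_at, with signals of 50.7 to 79.1, did not follow it (r = -0.144).

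Vhl, which encodes the part of the ligase that recognises hydroxylated HIF-alpha, also had higher group means with a single factor on its brighter probe set. On 1434708_at the signals were 444.5, 413.1 and 409.5 in the control group, 442, 649.1 and 593.7 with SEMA6A, 578.1, 666.1 and 446 with SEMA3A, and 422.3, 465.7 and 376.6 with both. SEMA6A replicate 1 and SEMA3A replicate 3 lay within the range of the arrays with neither factor or both. The differences from control were 0.38 ± 0.16 (SE) with SEMA6A and 0.40 ± 0.16 with SEMA3A, and neither passed (limma adjusted p = 0.525 and 0.593). The dim 1421071_at, at 26.8 to 113.4, did not follow it (r = -0.245). Cited2 had 1980, 1903 and 1959 in the control group, 2026, 1578 and 2620 with SEMA6A, 2302, 2612 and 1954 with SEMA3A, and 2119, 1915 and 2290 with both on 1452207_at, and the groups overlapped.

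The 4 probe sets of the HIF-induced hydroxylases are set here beside the 8 tested probe sets of the HIF subunits. For SEMA6A minus control the median log2 difference was 0.82 over Egln1 and Egln3 and 0.09 over the subunits, and -0.00064 over all 24366 probe sets. For SEMA3A the values were 0.74, 0.17 and -0.0064. For both factors they were 0.15, -0.04 and -0.0015. At an unadjusted p under 0.05, 4 of 4 hydroxylase probe sets were above control with SEMA6A and 4 of 4 with SEMA3A, where 4.91% and 3.84% of all were. These 4 are pairs of Egln1 and Egln3 that vary together (r = 0.891 and 0.922), so they are not independent. Of the 8 subunit probe sets 0 were above control in either comparison, which is near those shares and no result about the subunits. The difference between the hydroxylase and subunit sets was not itself tested, and the comparisons with control share the same 3 control arrays.

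In limma, 0 of the 19 tested probe sets passed the adjusted threshold in any of the 6 comparisons, and 0% of all probe sets did. At an unadjusted p under 0.05, 6 of 19 were higher and 1 lower with SEMA6A, where 4.91% of all probe sets were higher and 4.48% lower. With SEMA3A 5 were higher and 1 lower, against 3.84% and 4.29% of all. The 1 lower in each was the dim Hif1a probe set, which was above the array median on 5 arrays, 3 of them controls, and so passed the filter through the group where it was high. With both factors 1 of 19 was higher than control, the Arnt probe set 1421721_a_at, and 0 lower, where 2.89% of all were higher. Single arrays moved these counts, mostly down: with SEMA6A 7 reached that level, but 3 without SEMA6A replicate 2, 3 without SEMA6A replicate 3 and 4 without control replicate 2. Without SEMA6A replicate 1 it was 8. With SEMA3A 6 reached it, but 1 without SEMA3A replicate 1, 2 without SEMA3A replicate 2 and 4 without control replicate 2 or without control replicate 3. Without SEMA3A replicate 3 it was 7.

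**Figure D2:**
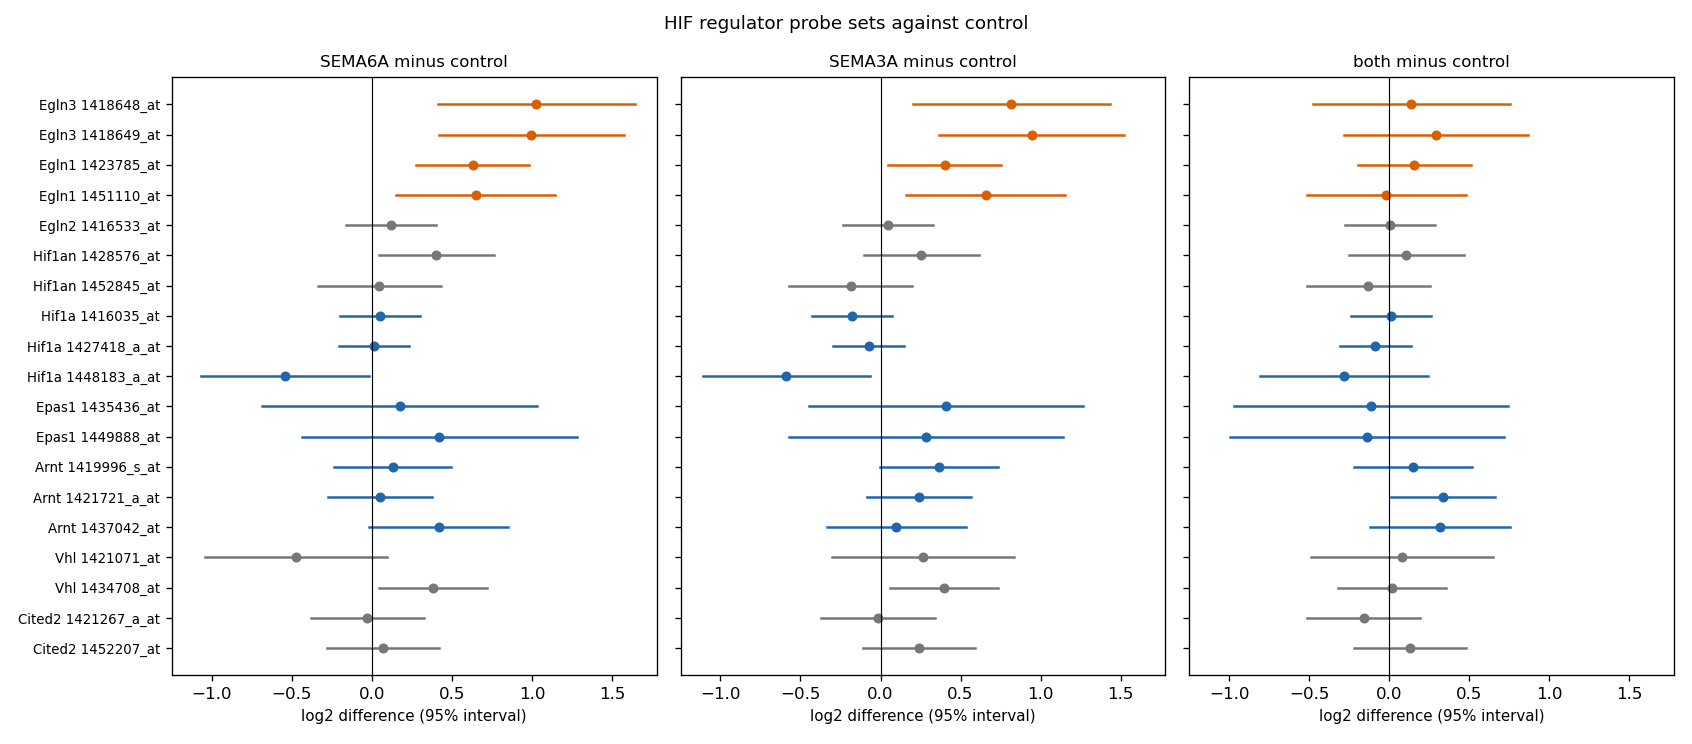
Log2 difference from control of the 19 tested probe sets (points) with 95% intervals (lines), for SEMA6A, SEMA3A and both, coloured orange for Egln1 and Egln3, blue for the HIF subunits and grey for the rest. The orange points lie between 0.40 and 1.03 with either factor alone and between -0.02 and 0.29 with both.

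Adding the second factor was next compared with each alone. Both minus SEMA6A was -0.70 ± 0.27 and -0.89 ± 0.29 (SE) for Egln3, -0.47 ± 0.16 and -0.67 ± 0.23 for Egln1 and -0.37 ± 0.16 for Vhl 1434708_at, with limma adjusted p of 0.455, or 0.456 for Vhl. Without SEMA6A replicate 2 the Egln3 values were -0.40 and -0.48. Both minus SEMA3A was -0.65 ± 0.27 and -0.68 ± 0.29 for Egln3 and -0.24 ± 0.16 and -0.67 ± 0.23 for Egln1, with limma adjusted p of 0.364 to 0.578. Without SEMA3A replicate 1, Egln3 1418649_at was at -0.42 and Egln1 1423785_at at -0.14, and with array weights Egln1 1451110_at passed, at -0.79 (limma adjusted p = 0.0361). Hif1a 1427418_a_at was at -0.10 and -0.01 in the same comparisons. At an unadjusted p under 0.05, 5 of 19 probe sets were lower against SEMA6A, where 5.74% of all were, and 4 of 19 against SEMA3A, where 5.26% of all were. These were Egln3, Egln1 and Vhl probe sets, and 0 of 19 were higher in either comparison. Against SEMA6A the count was 2 without SEMA6A replicate 2, 3 without SEMA6A replicate 3 and 8 without SEMA6A replicate 1. Against SEMA3A, leaving out SEMA3A replicate 1 gave 0, and leaving out SEMA3A replicate 2 or replicate 1 of the group with both gave 1.

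The interaction asks whether the effect of SEMA6A differs with and without SEMA3A, as (both minus SEMA3A) minus (SEMA6A minus control). It was -1.65 ± 0.38 (SE; 95% interval -2.46 to -0.83) for Egln3 1418649_at and -1.70 ± 0.40 (-2.57 to -0.83) for 1418648_at. For Egln1 it was -0.87 ± 0.23 (-1.37 to -0.37) and -1.32 ± 0.33 (-2.03 to -0.62), and for Vhl 1434708_at -0.76 ± 0.22 (-1.24 to -0.29). All 5 had a limma adjusted p of 0.24, which was also the lowest over all tested probe sets, and so did not pass. Hif1an 1428576_at was at -0.55 ± 0.24, while Hif1a was at -0.03 ± 0.14 (-0.34 to 0.29) and Egln2 at -0.16 ± 0.18. Epas1 was at -0.70 ± 0.56 and -0.85 ± 0.56 (limma adjusted p = 0.559 and 0.472), values near that of Egln1 1423785_at with wider errors, and without SEMA6A replicate 2 they were -0.15 and -0.29. At an unadjusted p under 0.05, 6 of 19 were lower and 1 higher, the dim Hif1a probe set, where 8.05% and 7.33% of all probe sets were.

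Calls on this interaction depended on single arrays. Without SEMA6A replicate 1 it passed for both probe sets of Egln1 (limma adjusted p = 0.0222), both of Egln3 (0.0249 and 0.0254) and Vhl 1434708_at (0.0311), with values of -1.10 and -1.58, -1.85 and -1.92, and -0.90. Weighting the arrays by how well they fitted the group means also brought these 5 past the threshold, at values of -1.01 and -1.53 for Egln1, -1.47 and -1.45 for Egln3 and -0.88 for Vhl. Without SEMA3A replicate 3, Egln1 1451110_at alone passed, at -1.61 (limma adjusted p = 0.0427). Without SEMA6A replicate 2, the highest Egln3 array, the values were -1.34 and -1.29 for Egln3, which did not pass.

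**Figure D3:**
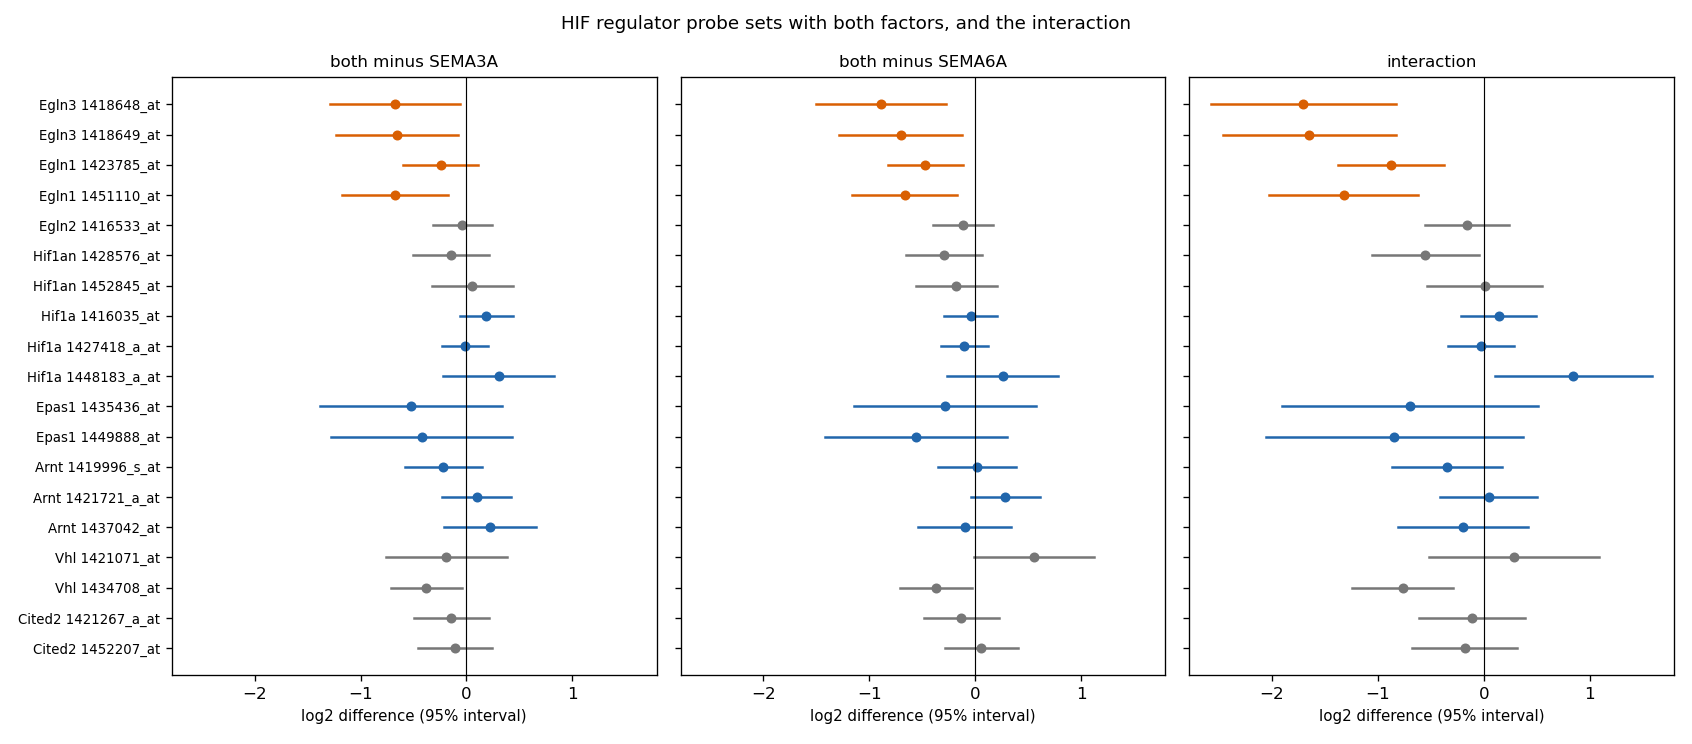
Log2 differences with 95% intervals of the 19 tested probe sets for both minus SEMA3A, both minus SEMA6A and the interaction, with the same colours by role. Egln1 and Egln3 lie between -0.89 and -0.24 in the first 2 panels and between -1.70 and -0.87 in the third, where Hif1a 1427418_a_at is at -0.03.

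In deposited signals, arrays with 1 factor alone lay above all arrays with neither or both for 3 of the 19 tested probe sets, both of Egln3 and 1423785_at of Egln1, and for 0 of the 8 subunit probe sets. Over all 24366 probe sets this held for 73, or 0.3%. After quantile normalization it held for 2 members, both of Egln3, and for 0.369% of all probe sets. This split of the arrays is the same contrast as the interaction and adds no independent evidence to it.

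Of 4 signal ratios used as measures of RNA quality, 1 differed along with these genes in both groups with a single factor, that of the transferrin receptor. Its gene, Tfrc, also stands in the list of other HIF targets below, at -0.26 with SEMA6A and -0.32 with SEMA3A. The part of the Tfrc level in this ratio was not tested. The 3′ over 5′ signal ratio of the transferrin receptor control probe sets was 6.82, 8.41 and 9.34 in the control group, 8.39, 35.7 and 23.3 with SEMA6A, 17.2, 17.6 and 18.1 with SEMA3A, and 12.2, 5.93 and 11.2 with both. SEMA6A replicate 2 had the highest ratio there and on the other 3 controls, with 1.22 on Gapdh against 0.767 to 0.818 on the other 11 arrays. The ratio of pyruvate carboxylase was 6.86, 15.5 and 10.3 with SEMA6A, where replicates 2 and 3 had the highest of the 12 arrays. It did not follow the genes in the SEMA3A group, at 6.66, 6.90 and 5.78 against 8.26, 7.80 and 7.01 in the control group. The SEMA3A ratios of Gapdh and Actb were not above those of all control arrays. SEMA6A replicate 1, the array with the lowest Egln1 and Egln3 signals of its group, had a transferrin receptor ratio within the control range. The 4 arrays highest for Egln1, Egln3 and Vhl 1434708_at were SEMA6A replicates 2 and 3 and SEMA3A replicates 1 and 2, all with ratios of 17.2 or more. SEMA3A replicate 3 had a ratio of 18.1 and was not among them. Summed markers of squamous carcinoma were 2439 to 2877 in the control group, 2395 to 3777 with SEMA6A, 2305 to 3098 with SEMA3A and 2540 to 2868 with both, with 8 of 11 passing the filter and Krt14, Trp63 and Pkp1 below it. That sum is made up mostly of Cdh1 and Epcam. The keratins Krt19 and Krt18 were highest on the same 4 arrays as Egln1 and Egln3. Krt19 was at 208.9, 186.2, 163.1 and 239 there and at most 76.8 on the other 8, and Krt18 at 124.6, 101, 84.4 and 121.4 there and at most 72.5 on the others. Of the other squamous markers above the filter, Krt5, Krt6a, Krt8, Epcam, Cdh1 and Dsp, none had its highest signals on exactly these 4 arrays, but some followed in part. Krt8 was at 146.5, 127.5 and 146.9 on SEMA6A replicates 2 and 3 and SEMA3A replicate 2, and at most 91.6 on the others. Dsp was highest on SEMA6A replicates 2 and 3, at 252.6 and 141.3. Krt6a was at 98.3 on SEMA6A replicate 2 and at 132.6 on replicate 2 of the group with both. Cdh1 was at 1869 on SEMA6A replicate 2 and 1867 on control replicate 2, but at 1048 on SEMA3A replicate 1. The part of RNA quality or of tumour RNA in these results was not tested.

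**Figure D4:**
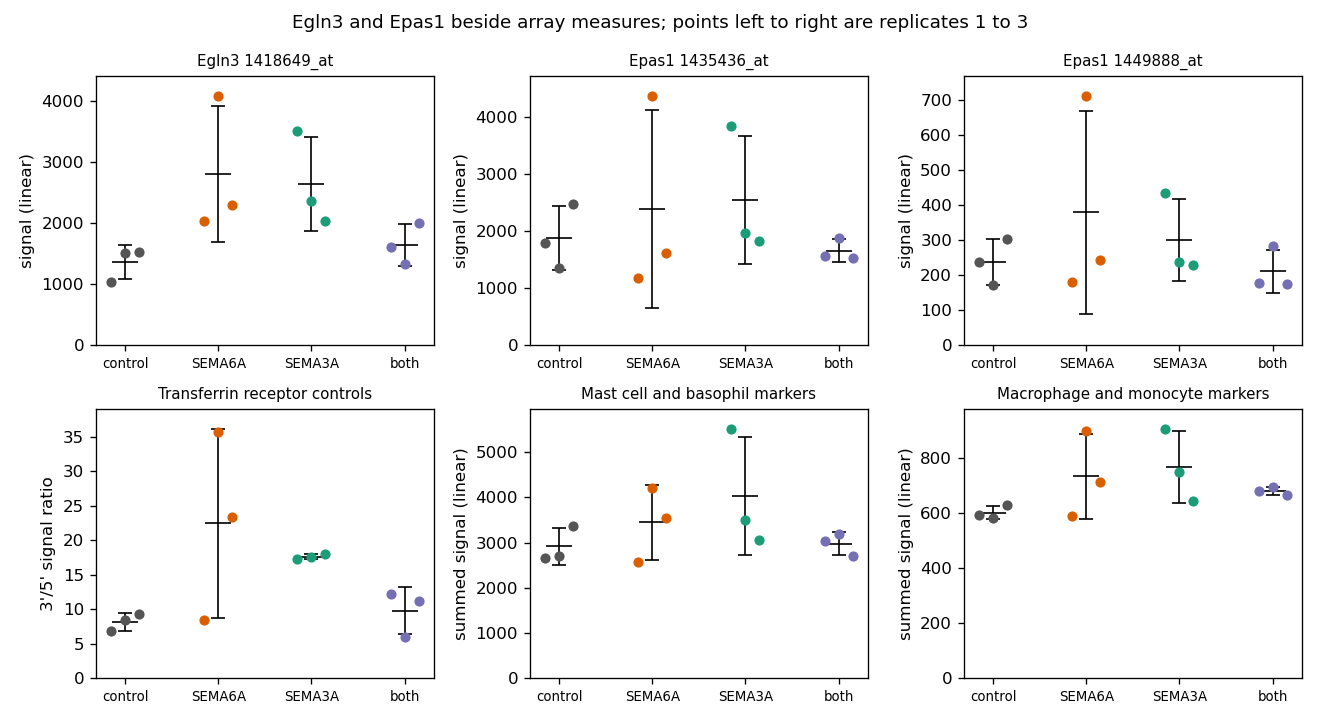
Signals of Egln3 and of both Epas1 probe sets (upper row) beside the transferrin receptor ratio and the summed signals of mast cell and macrophage markers (lower row), with points for replicates 1 to 3 from left to right and mean and SD as bar and whiskers (n = 3). SEMA6A replicate 2 is the highest array for Egln3, at 4081, for Epas1, at 4361, and for the ratio, at 35.7.

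Known targets of HIF were then examined beside the regulators, in 4 lists of genes, with the brightest tested probe set per gene. The list of glycolytic HIF targets held 21 genes, of which 18 had a probe set annotated to them alone and were tested. Gapdh, Eno1 and Gpi1 had none. Of the 18 tested, 18 were above 0 with SEMA6A and 18 with SEMA3A, with medians of 0.38 and 0.40. In each comparison 12 had an unadjusted limma p under 0.05. Over all 11325 genes 6.3% and 4.76% were higher at that level, and the medians were 0.019 and 0.0075. With both factors the median was 0.13, and 0 passed the unadjusted level. None passed the adjusted threshold in limma. The interaction was below 0 for 18 of 18, with a median of -0.76 and 14 at an unadjusted p under 0.05, where 10.0% of all genes were lower. Examples were Tpi1, triosephosphate isomerase, at 0.52 ± 0.14 (SE) with SEMA6A and 0.49 with SEMA3A, and Pfkl, a phosphofructokinase, at 0.75 ± 0.22 with SEMA6A and -1.27 ± 0.31 in the interaction. Pdk1, which limits the oxidation of pyruvate in the mitochondrion, was at 0.71 ± 0.22 with SEMA6A, and Pkm, pyruvate kinase, at 0.46 ± 0.13 with SEMA3A.

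Of 24 other HIF targets tested, 19 were above 0 with SEMA6A and 21 with SEMA3A, with medians of 0.39 and 0.30. Those below 0 with SEMA6A were Bhlhe40, Hilpda, Hmox1, Wsb1 and Tfrc, at -0.26 to -0.062. At an unadjusted p under 0.05, 12 were higher with SEMA6A, where 6.3% of all genes were, and 12 with SEMA3A, where 4.76% were. With SEMA3A 1 was lower, where 3.74% of all genes were. With both factors 0 reached that level, with a median of 0.03. In the interaction 16 were lower and 1 higher, where 10.0% and 7.7% of all genes were, with a median of -0.61. Bnip3, which marks mitochondria for removal, was at 0.64 ± 0.18 (SE) with SEMA6A, 0.70 with SEMA3A and -1.24 ± 0.25 in the interaction. Ankrd37 was at 1.25 ± 0.34 with SEMA3A, and Higd1a, a mitochondrial protein gene, at -0.69 ± 0.14 in the interaction. None passed the adjusted threshold in limma. For the values given of Bnip3, Ankrd37 and Higd1a, the limma adjusted p was 0.525 with SEMA6A, 0.593 with SEMA3A and 0.24 in the interaction. Without SEMA6A replicate 2, 8 glycolytic and 7 other targets reached the unadjusted level with SEMA6A, with medians of 0.27 for each. Without SEMA6A replicate 3, 6 other targets did. With SEMA3A, 6 glycolytic and 7 other targets reached it without SEMA3A replicate 1, and 7 and 7 without SEMA3A replicate 2.

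Other regulators of HIF include coactivators, chaperones and further ligase parts. Of 24 tested, 2 were higher at an unadjusted p under 0.05 with SEMA6A, 1 with SEMA3A and 0 with both, where 6.3%, 4.76% and 2.54% of all genes were, with medians of 0.0035, 0.032 and -0.0058. In the interaction 5 were lower and 1 higher, where 10.0% and 7.7% of all genes were, with a median of -0.12. Eif4ebp1, a brake on translation that mTOR controls, was at 0.57 ± 0.19 (SE) with SEMA6A, 0.43 ± 0.19 with SEMA3A and -0.88 ± 0.27 in the interaction. Ep300, a coactivator of HIF, was at 0.53 ± 0.16 (SE) with SEMA6A and -0.77 ± 0.23 in the interaction. Other 2-oxoglutarate dioxygenases are of the enzyme family to which the EGLN proteins belong. Of 27 tested, 4 were higher with SEMA6A, 2 with SEMA3A and 0 with both, against the same shares of all genes. The medians were 0.061, 0.037 and -0.04. In the interaction 7 of 27 were lower, where 10.0% of all genes were, and in both minus SEMA6A 6 of 27, where 6.18% were. The members named first there, P4ha1 and P4ha2, are collagen prolyl hydroxylase genes that also stand in the list of other HIF targets. They were at 0.50 ± 0.17 and 0.92 ± 0.28 with SEMA6A and 0.61 and 0.80 with SEMA3A. Plod1, Plod2 and Kdm3a stand in both lists as well, so the dioxygenase list is not free of HIF targets. Kdm4a, a histone demethylase gene, was at 0.45 ± 0.15 with SEMA6A. None of the values given passed in limma, with adjusted p of 0.525 with SEMA6A, at least 0.593 with SEMA3A and at least 0.24 in the interaction.

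**Figure D5:**
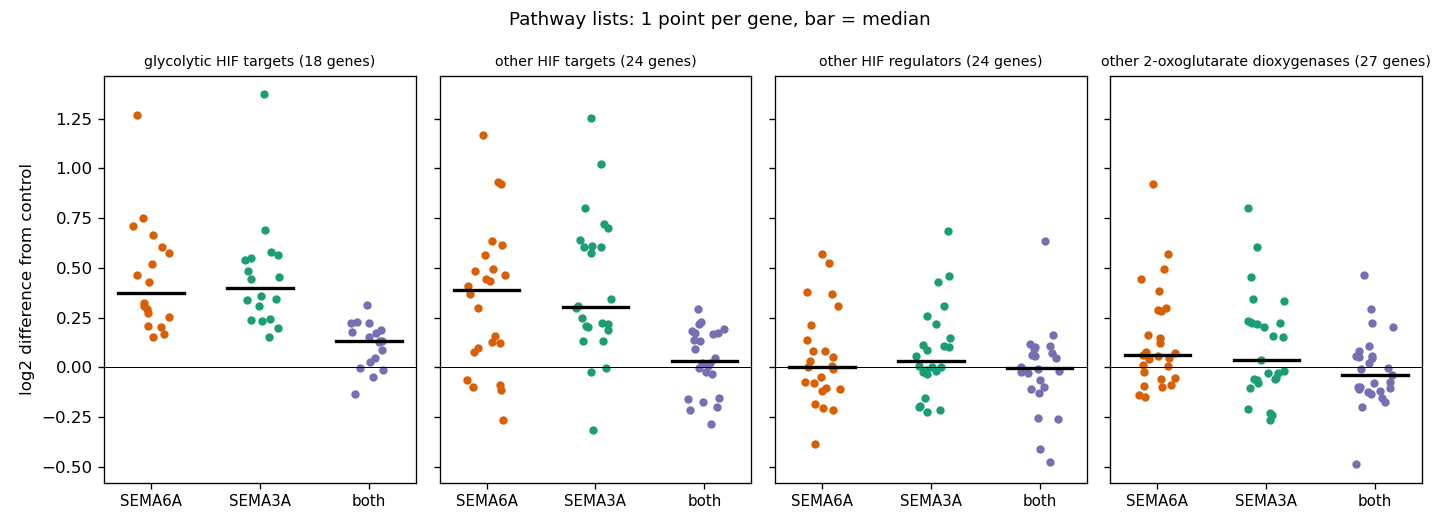
Log2 difference from control of each tested gene (points) in 4 lists for SEMA6A, SEMA3A and both, with the bar at the median. Medians of the glycolytic targets are 0.38, 0.40 and 0.13, and those of the other HIF regulators 0.0035, 0.032 and -0.0058.

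Likeness over the 12 arrays was measured on normalized log2 signals among 10775 genes, as a description, since arrays of a group share their treatment. Genes most like Egln3 were Mgarp (Pearson r = 0.968, Spearman rho = 0.972), Eif4ebp1 (0.952 and 0.972), Gxylt1 (0.949 and 0.937), Aars (0.939 and 0.979) and Rgs11 (0.939 and 0.970). Those most like Egln1 were Snhg8 (r = 0.965), Grhpr (0.963), Clcn3 (0.962), Myo16 (0.962) and Prelid1 (0.957), and those most like Hif1a were Pms2 (0.914), Trim28 (0.905), Ctnnbip1 (0.859), Abhd1 (0.842) and Acot2 (0.809). No p is given, since these were picked as the highest of all genes ranked. Among the members' brightest probe sets, r was 0.829 between Egln1 and Egln3, 0.850 between Egln1 and Vhl and 0.859 between Egln3 and Hif1an. Hif1a had -0.105 with Egln1 and -0.0501 with Egln3.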

How the data were processed

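Total RNA (6 µg) of 12 splenocyte samples was hybridised to single-colour Affymetrix arrays, as the labels' protocols say. The authors deposited 1 linear intensity for each probe set. Per the submitters' processing notes these come from MAS5, with no version stated there. A mean trimmed by 2% at each end came to 500 on every array, so the deposited intensities had been scaled by 1 factor per array. Array medians lay between 42.7 and 53.7. Precision is limited by having 3 arrays per group. No scanner file or detection call was used here.

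Without 64 control probe sets, 45037 of 45101 remained. The platform annotation gave 1 gene for 34945, several for 932 and no entry for 9160. Of those naming 1 gene, 34754 matched the RefSeq table of GRCm38.p6. Signals were transformed as log2(signal + 16), which understates changes of dim genes, and quantile normalized. The filter kept 24366 probe sets. One mean per group was fitted over all 12 arrays with limma 3.58.1 in R 4.3.3 (trended prior, 8 residual and 5.28 prior degrees of freedom), and p-values were adjusted by Benjamini-Hochberg over all 24366 at 0.05. The median standard error was 0.18.

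The members and gene lists were chosen with earlier results of these data known. All members were named, with up to 3 genes of smallest p per list and comparison, of which a part is printed, and the 5 genes most like Egln3, Egln1 and Hif1a. Genes of several lists were counted in each. Arrays singled out were chosen after their values were seen.

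The fit was checked on simulated data for SEMA6A against control with 24366 probe sets, 200 of them changed, in 20 draws. In those draws it recovered 24.0% of 1.5-fold, 62.5% of 2-fold and 92.6% of 4-fold changes, with 5.18% false calls. Whether these rates hold for the deposited arrays was not tested. Same-numbered arrays of different groups did not deviate together: 0 of 18 correlations of their deviations from the group means were over 0.1 (-0.285 to 0.0834). As alternatives, each array was left out in turn, and the normalization, the filter (none, or the 75th percentile), the pseudocount (1 or 64), the prior trend, the array weights, the probe sets per gene, the arrays fitted and a block for replicate number were varied.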

Additional observations from a re-analysis of the deposited data

How the results depend on the processing

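The number of probe sets past the adjusted threshold was 0 in each of the 6 comparisons. It stayed 0 with pseudocounts of 1 and 64, both other filters, 1 probe set per gene and no prior trend. Without further normalization it was 1 for both factors against control. With only the arrays compared it was 52 for both against control and 40 for both against SEMA3A. With array weights it was 1 for SEMA6A, 150 for both against control, 785 for both against SEMA3A, 7 for both against SEMA6A and 2357 for the interaction. Leaving out 1 array gave 0 to 199 for SEMA6A and 0 to 1377 for the interaction, both highest without SEMA6A replicate 1, and 109 for the interaction without SEMA3A replicate 3. It gave 0 to 1 for SEMA3A, 0 to 7 for both against control, 0 to 2 for both against SEMA3A and 0 to 1 for both against SEMA6A. With the replicate block, 0 probe sets passed in every comparison, with a lowest adjusted p of 0.342 for the interaction. The causes were not tested.

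For the members, 2308 of 2387 values kept their direction under the alternatives, and 13 passed the threshold, 11 of them of Egln1 and Egln3. In the 5 comparisons other than both against control, 426 of 426 values of Egln1 and Egln3 kept theirs. A change of direction in a value of at least its standard error occurred for 2: Epas1 1449888_at, SEMA6A against control, from 0.42 to a range of -0.14 to 0.78 on leaving out 1 array, and Arnt 1437042_at, both against SEMA3A, from 0.22 to a range of -0.0214 to 0.50.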
